A study of Mus musculus and Homo sapiens with 81 samples.

Results

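The genes Ly6a, Ly6e, Ly6c1 and Ly6c2 encode small lymphocyte antigen 6 (Ly6) proteins of the cell surface. They were taken by symbol as 4 of the 23336 genes counted in B16, a mouse melanoma line, after earlier results of these data were known. They were chosen by their measured counts across all 14 B16 groups, so B16 levels and differences of the 4 genes are given as descriptions without a test. Poly(A) RNA was sequenced from Cas9-expressing B16 cells infected with a guide against Ptpn2 (Ptpn2sg3, labelled Ptpn2ko and here called Ptpn2-null) or with the non-targeting guide Bro3 (control). Each genotype was held for 48 h in IFNb (1000 U/mL), IFNg (100 ng/mL), TNFa (10 ng/mL), a pair of these (written IFNbIFNg, IFNbTNFa and IFNgTNFa) or vehicle, PBS with BSA, with 3 libraries in each of the 14 groups. Every group carried Cas9 and a lentiviral guide. A single guide stood for each genotype, so an effect of Ptpn2 and any other way in which these infected populations differ cannot be told apart. The labels do not say whether the libraries of a group came from separate cultures. If they did not, the spread between them is technical.

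Ly6 proteins are short three-finger proteins held together by disulfide bonds and fixed to the outer membrane by a glycosylphosphatidylinositol (GPI) anchor. In the mouse, Ly6a is Sca-1, the antigen used to sort blood stem cells, and it is known as an interferon-inducible antigen of T cells. Ly6e, also called TSA-1 or Sca-2, marks immature thymocytes and limits the entry of coronaviruses. Ly6c1 and Ly6c2 encode the Ly6C antigens, by which monocytes are divided into subsets. Ptpn2 encodes a phosphatase that acts on JAK kinases and STAT factors, the route by which interferon receptors reach the nucleus.

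The 4 genes lie within 156.9 kb of mouse chromosome 15 on mm10, with Ly6e at chr15:74955051-74959905 on the plus strand. On the minus strand follow Ly6a at chr15:74994877-74998031, Ly6c1 at chr15:75044018-75048830 and Ly6c2 at chr15:75108158-75111970 (GENCODE M21). The first 60 coding bases are shown because they let the eye compare how close the paralogs are, and closeness decides whether a short read can be placed on 1 gene. Capitals mark bases that differ from Ly6c1.
Ly6a: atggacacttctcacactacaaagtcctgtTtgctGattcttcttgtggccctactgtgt
Ly6c1: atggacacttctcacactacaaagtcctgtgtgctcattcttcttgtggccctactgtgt
Ly6c2: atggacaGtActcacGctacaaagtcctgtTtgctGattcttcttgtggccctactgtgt
Ly6e: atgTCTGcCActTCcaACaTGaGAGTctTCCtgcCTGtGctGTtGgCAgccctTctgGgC
In this window Ly6a differed from Ly6c1 at 2 bases, Ly6c2 at 5 and Ly6e at 31.

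Over the whole coding sequence, Ly6c1 and Ly6c2 were identical at 97.7% of 393 aligned bases, and their translated proteins at 94.7% of residues. Ly6a and Ly6c1 shared 83.7% of aligned coding bases and 74.2% of residues. Ly6e was the most distant, with 59.6% to 64.6% of aligned bases identical to the other 3 genes. The reads were pairs of 37 bases. Words of 37 bases were searched singly on both strands, without use of the mate, so their shares are not shares of read pairs. Of the distinct 37-base words in Ly6a's coding transcripts, 72.9% occurred in no transcript of another annotated gene. That share was 66.3% for Ly6c1, 55.1% for Ly6c2 and 99.7% for Ly6e. Ly6a and Ly6c1 held 252 words in common, 19.8% of the words of Ly6a, and Ly6c1 and Ly6c2 held 343, 41.3% of those of Ly6c2. How reads that match more than 1 gene were counted is not given in the sources used here, so the split of counts among Ly6a, Ly6c1 and Ly6c2 is uncertain.

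**Figure D1:**
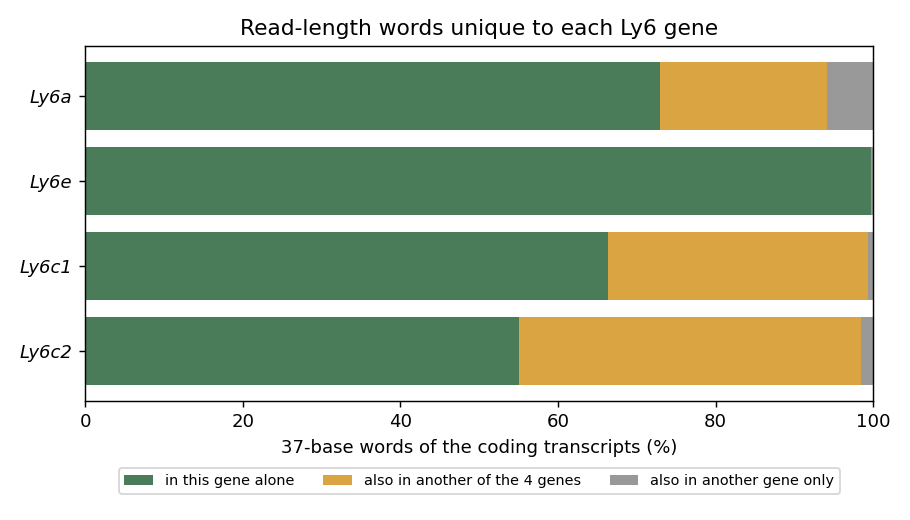
Share of distinct 37-base words of each gene's coding transcripts (x axis, percent) that are found in that gene alone, also in another of the 4 genes, or also in another gene only. Ly6e stands apart with 99.7% of its words its own, against 55.1% for Ly6c2.

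RefSeq promoter sequences (GRCm38.p6) were at hand for 2 of the 4 genes, Ly6c1 and Ly6c2. The 250 bases before the start of their first listed transcripts are shown because these near-identical genes differed widely in counts. Both are on the minus strand, Ly6c1 at chr15:75048838-75049087 and Ly6c2 at chr15:75111972-75112221. Capitals mark bases with no identical partner in a global alignment of the pair. The cuts are offset against each other in that alignment. The long capital runs that open Ly6c1 and close Ly6c2 therefore have no partner within the other cut and are not read as differences.
Ly6c1: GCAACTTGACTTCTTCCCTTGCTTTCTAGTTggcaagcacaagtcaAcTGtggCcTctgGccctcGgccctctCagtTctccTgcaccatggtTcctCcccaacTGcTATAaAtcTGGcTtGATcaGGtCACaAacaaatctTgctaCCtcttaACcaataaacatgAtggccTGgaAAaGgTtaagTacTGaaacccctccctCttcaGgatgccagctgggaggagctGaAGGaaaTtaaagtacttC
Ly6c2: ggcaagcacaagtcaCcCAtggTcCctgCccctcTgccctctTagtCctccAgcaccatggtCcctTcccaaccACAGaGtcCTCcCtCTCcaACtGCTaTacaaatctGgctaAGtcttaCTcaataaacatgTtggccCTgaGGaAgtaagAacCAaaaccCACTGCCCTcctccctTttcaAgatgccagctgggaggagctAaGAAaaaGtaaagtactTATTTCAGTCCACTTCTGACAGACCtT
Of 216 aligned bases, 164 were identical (75.9%), fewer than in the coding sequence. Both strands of the full listed windows, which run on past the start, were searched for the core of the interferon element ISRE (GAAANNGAA) and the kappaB site (GGGANTTTC). Read on the opposite strand, the kappaB letters open with GAAA, as the ISRE core does. None of the 4 listed windows of the pair held either motif, while 8.56% of all 32851 promoters held the ISRE core and 1.11% the kappaB letters.

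Library totals ran from 3498860 to 6432517 counts in B16. Levels are given as CPM, read counts scaled to library size with TMM factors. The targeted transcript Ptpn2 stood at 8.23 to 16.4 CPM in Ptpn2-null libraries and at 44.7 to 61.9 CPM in control libraries. The melanocyte gene Tyrp1 reached 2912 to 12090 CPM. Of 16 leukocyte markers, 15 had a row, and Ptprc, Cd8a, Itgam, S100a8, S100a9 and Ncr1 were at 0 in all 42 libraries. The rest had 1 to 111 counts each over the 42 libraries. Lyz2 (111 counts) and Cd79a (71) were counted in all 14 groups, and Cd4 (42) in 11. The markers summed to at most 2.56 CPM in any library. The 5 libraries whose genes lay farthest from their group means (SD of 0.138 to 0.186 on the log2 scale, with 0.120 the next) were Ptpn2-null IFNgTNFa replicate 1, Ptpn2-null IFNbIFNg replicate 3, Ptpn2-null TNFa replicate 1 and control IFNbIFNg replicates 2 and 3.

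No Ly6 transcript of the 4 was counted in any of the 6 vehicle libraries or the 6 TNFa libraries. Counts appeared mainly where IFNg was present, and Ly6a carried most of them, 13904 of its own against 2593 for Ly6c1, 40 for Ly6e and 1 for Ly6c2 over 42 libraries. Ly6a was counted in 20 libraries, Ly6c1 in 16, Ly6e in 11 and Ly6c2 in 1. A group total of 0 allows a level of up to 0.176 CPM in Ptpn2-null vehicle cells and 0.184 CPM in control vehicle cells, taking 3 counts over the group as the limit. This limit covers counting error only. Bulk RNA gives an average, so fewer cells with a transcript and less of it per cell cannot be told apart. Of the 4 genes, Ly6a and Ly6c1 passed the filter on low counts, and the other 2 are given by their counts.

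**Figure D2:**
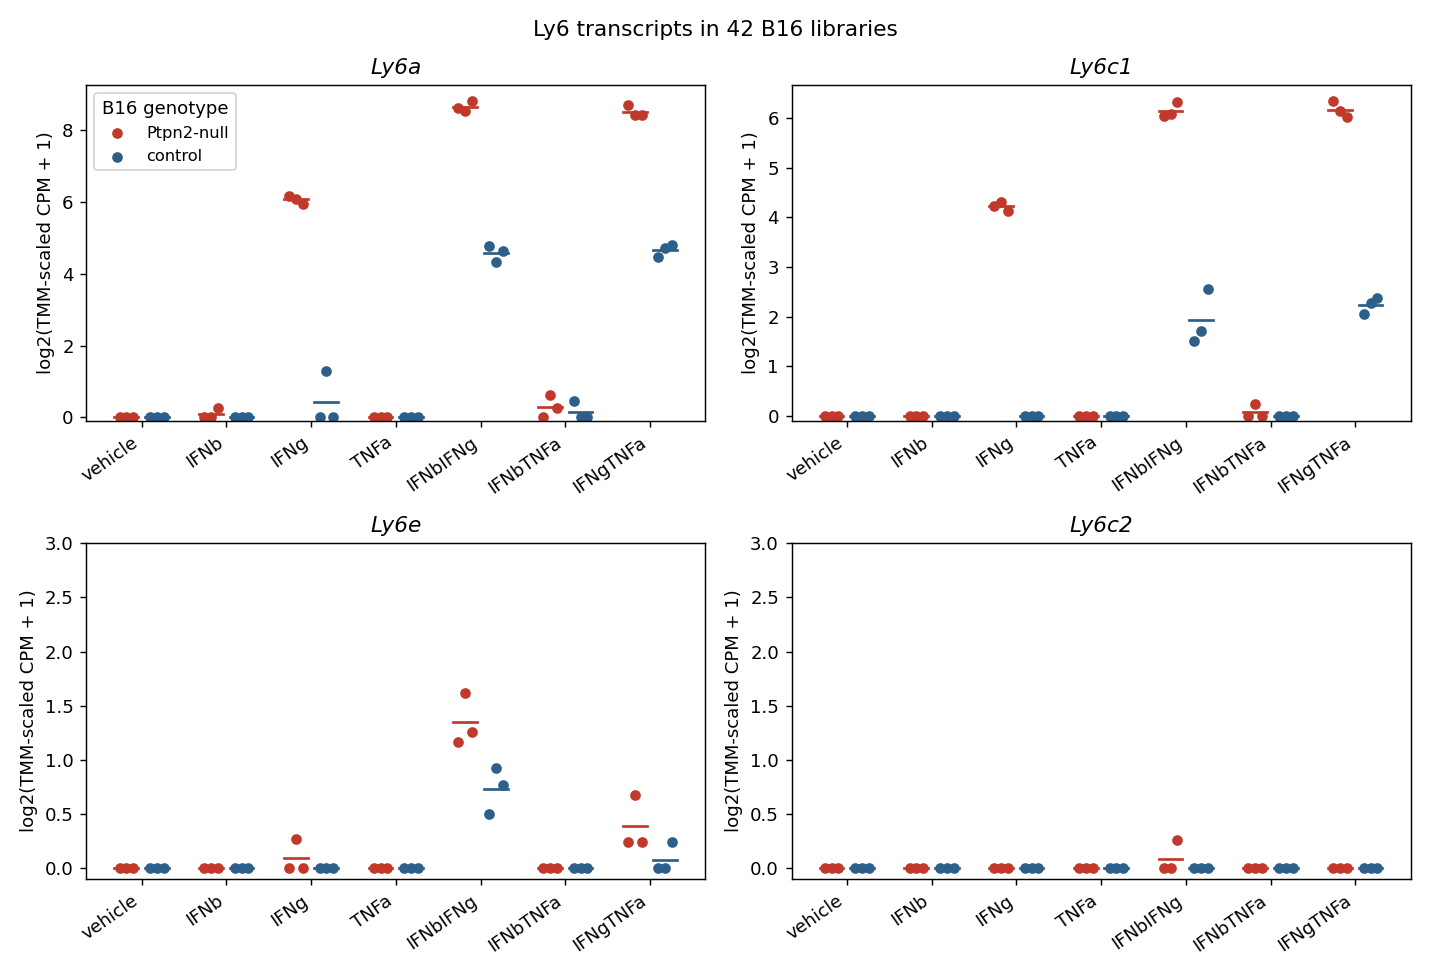
Level of each Ly6 gene in 42 B16 libraries as log2 of TMM-scaled CPM plus 1 (y axis) by treatment (x axis), with 1 point per library and a line at the mean of 3, Ptpn2-null in red and control in blue. Ly6a and Ly6c1 stand highest in Ptpn2-null cells given IFNg alone or in a pair, control cells given IFNg in a pair lie lower, control cells given IFNg alone lie at or near 0, and Ly6e and Ly6c2 stay near 0 on a smaller scale.

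Ly6a was the most abundant of the 4. Under IFNg it stood at 71.3, 67.2 and 61.1 CPM in the Ptpn2-null libraries (66.5 ± 5.14, SD, n = 3), against 0, 1.46 and 0 CPM in the control libraries (0.486 ± 0.841). All 3 Ptpn2-null libraries lay far above the control libraries, where the only counts were 9 reads in replicate 2. The fitted log2 fold change was 6.91 ± 0.33 (SE), and it rests on those 9 reads. Without control replicate 2 the control libraries are at 0 and the difference is at least 7.91, and it is 6.31 without control replicate 1.

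Under IFNbIFNg, Ly6a stood at 392.3, 370.7 and 453.7 CPM in Ptpn2-null libraries (405.6 ± 43.1, n = 3), against 26.5, 19.0 and 24.1 CPM in control libraries (23.2 ± 3.83). Under IFNgTNFa it stood at 415.1, 342.7 and 345.0 CPM in Ptpn2-null libraries (367.6 ± 41.1), against 21.1, 25.5 and 26.9 CPM in control libraries (24.5 ± 3.06). In both pairs every Ptpn2-null library was above every control library, and the control libraries were themselves above all control libraries given IFNg alone. The fitted differences between genotypes were 4.12 ± 0.14 under IFNbIFNg and 3.90 ± 0.14 under IFNgTNFa on the log2 scale. Against vehicle, where all libraries were at 0, Ly6a was at least 2305-fold higher with IFNbIFNg, at least 2095-fold with IFNgTNFa and at least 376.2-fold with IFNg in Ptpn2-null cells. In control cells these lower bounds were 126.2-fold with IFNbIFNg, 133.8-fold with IFNgTNFa and 2.86-fold with IFNg, the last with overlapping libraries.

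IFNb alone, or with TNFa, left Ly6a at the edge of detection. Ptpn2-null libraries held 0, 0 and 1 reads under IFNb, against none in control libraries. Under IFNbTNFa they held 0, 3 and 1 reads, against 2, 0 and 0 in control libraries, a ratio of 1.79 with a counting interval of 0.256 to 19.8 (exact binomial, 95%). The genotypes overlapped under both treatments.

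Ly6c1 was counted mainly in the same 5 groups as Ly6a, at lower levels. Under IFNg it stood at 17.7, 18.8 and 16.6 CPM in Ptpn2-null libraries (17.7 ± 1.12, n = 3) and was not counted in any control library, which makes it at least 100.4-fold higher. Under IFNbIFNg it stood at 64.99, 66.7 and 78.6 CPM in Ptpn2-null libraries (70.1 ± 7.43), against 1.85, 2.26 and 4.90 CPM in control libraries (3.002 ± 1.66). Under IFNgTNFa it stood at 80.5, 69.3 and 64.2 CPM in Ptpn2-null libraries (71.3 ± 8.31), against 3.13, 3.82 and 4.16 CPM in control libraries (3.70 ± 0.525). The Ptpn2-null and control libraries did not overlap under any of these treatments. The fitted log2 differences between genotypes were 4.56 ± 0.19 under IFNbIFNg and 4.25 ± 0.17 under IFNgTNFa. Without control IFNbIFNg replicate 3, which had the most Ly6c1 of its group, the IFNbIFNg difference was 5.09. Without all 5 libraries far from their group means the IFNbIFNg difference was 5.18. That value leaves replicate 1, with 9 Ly6c1 reads, as the lone control IFNbIFNg library. Outside the groups given IFNg, a single read of Ly6c1 was counted, in Ptpn2-null IFNbTNFa replicate 2.

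Ly6e, the gene whose reads are least shared, was near the limit of detection. Under IFNbIFNg it had 7, 10 and 7 reads in Ptpn2-null libraries (1.57 ± 0.438 CPM, n = 3), against 2, 4 and 3 reads in control libraries (0.671 ± 0.248 CPM). The libraries did not overlap, and the ratio was 2.34 with a counting interval of 1.05 to 5.71. Under IFNgTNFa it had 1, 3 and 1 reads in Ptpn2-null libraries, against 0, 0 and 1 in control libraries, and the groups overlapped. Under IFNg it had 0, 1 and 0 reads in Ptpn2-null libraries, against none in control libraries. Ly6c2, nearly identical to Ly6c1 in coding sequence, had 1 read in all, in Ptpn2-null IFNbIFNg replicate 3.

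Every Ptpn2-null library was above every control library for 2 of the 4 genes under IFNg (Ly6a and Ly6c1), as it was for 24.8% of the 11726 genes tested. The same held for 3 of 4 under IFNbIFNg, where Ly6e joined them (17.4% of genes tested), and for 2 of 4 under IFNgTNFa (22.4%). As the 4 genes were chosen with these values known, nothing is read from those counts. In these groups the summed CPM of 8 melanocyte genes was lower in the Ptpn2-null libraries. It was 15730 to 16000 in Ptpn2-null and 23740 to 24060 in control libraries under IFNg, 11880 to 12810 and 14900 to 15860 under IFNbIFNg, and 6836 to 7006 and 12640 to 13310 under IFNgTNFa, in the same order of genotypes. Its part in the Ly6 levels was not tested. The 15 leukocyte markers summed to 0.361 to 0.438 CPM in Ptpn2-null and 0.825 to 1.13 CPM in control libraries under IFNg. Their sums overlapped between genotypes under IFNbIFNg (1.24 to 1.78 CPM in Ptpn2-null and 0.451 to 2.34 CPM in control libraries). They also overlapped under IFNgTNFa (1.47 to 2.40 and 1.46 to 2.35 CPM). The 7 stromal markers with a row summed to 16.3 to 18.6 CPM in Ptpn2-null and 12.4 to 15.1 CPM in control libraries under IFNg. Under IFNbIFNg and IFNgTNFa the stromal sums of the genotypes overlapped. Of the 7, only the endothelial gene Kdr was at 0 in every library. The endothelial gene Pecam1 stood at 1.36 to 5.33 CPM and Col1a1 at 3.29 to 16.6 CPM over the 42 libraries. The part of either list was not tested.

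The second cytokine was set against IFNg alone within each genotype. In Ptpn2-null cells, Ly6a was 2.61 ± 0.12 higher on the log2 scale with IFNbIFNg and 2.47 ± 0.12 higher with IFNgTNFa. Ly6c1 was 1.99 ± 0.13 higher with IFNbIFNg and 2.01 ± 0.13 higher with IFNgTNFa. In control cells, Ly6a was 5.40 ± 0.42 higher with IFNbIFNg and 5.48 ± 0.41 higher with IFNgTNFa, values that again rest on the 9 reads of control IFNg replicate 2. Without that library the control cells given IFNg are at 0 and the differences are at least 6.37 and 6.47. Ly6c1 in control cells was at least 16.7-fold higher with IFNbIFNg and at least 21.2-fold higher with IFNgTNFa than with IFNg, under which none was counted. In both genotypes, every library with a second cytokine was above every library with IFNg alone for Ly6a and Ly6c1. That held for 19.8% of genes tested with IFNbIFNg and 32.4% with IFNgTNFa in Ptpn2-null cells, and for 29.0% with IFNbIFNg and 34.1% with IFNgTNFa in control cells, and nothing is read from the 2 genes beside it. IFNb or TNFa on its own gave at most 1 read of either gene in a library.

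**Figure D3:**
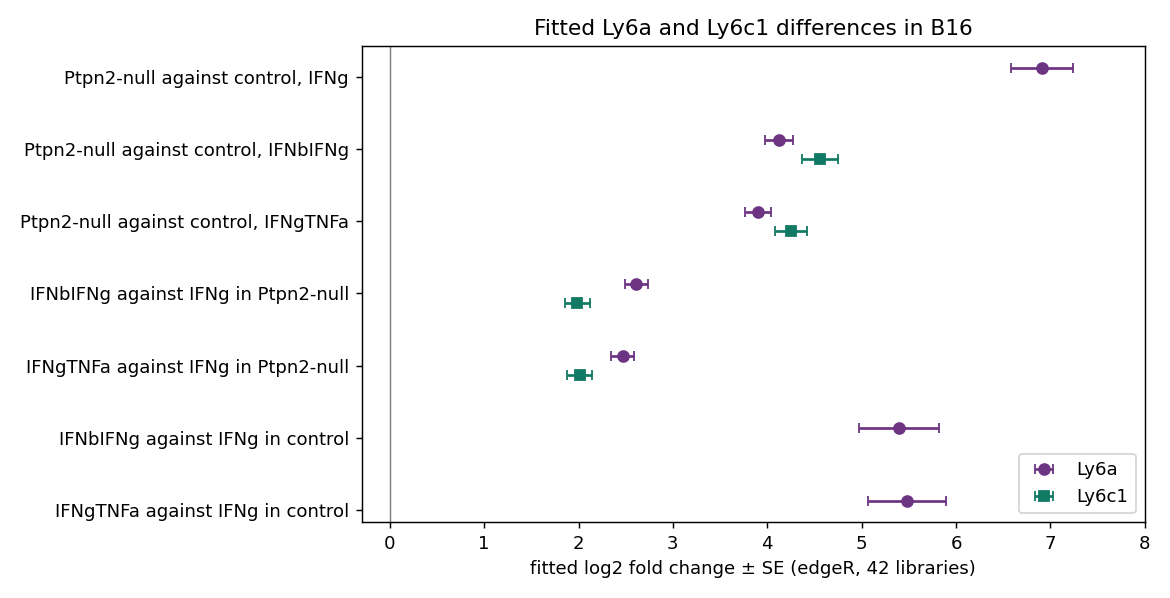
Fitted log2 fold changes with SE (x axis) of Ly6a (circles) and Ly6c1 (squares) for the comparisons named on the y axis. The differences between genotypes lie between 3.90 and 6.91, and the differences between a pair with IFNg and IFNg alone in Ptpn2-null cells between 1.99 and 2.61. Ly6c1 has no point where a group was at 0.

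Levels of different genes were set side by side per kb of exon (CPM per kb). In Ptpn2-null cells, Ly6a stood at 336.6 ± 35.7 under IFNbIFNg, 305.1 ± 34.1 under IFNgTNFa and 55.2 ± 4.27 under IFNg (CPM per kb, SD, n = 3). Ly6c1 stood at 41.8 ± 4.43 under IFNbIFNg, 42.5 ± 4.96 under IFNgTNFa and 10.6 ± 0.666 under IFNg in the same cells. In control cells, Ly6a stood at 19.2 ± 3.18 under IFNbIFNg and 20.3 ± 2.54 under IFNgTNFa, and Ly6c1 at 1.79 ± 0.989 and 2.21 ± 0.313 CPM per kb under the same treatments. For both genes the order of groups ran from Ptpn2-null cells given a pair with IFNg, through Ptpn2-null cells given IFNg alone, to control cells given a pair. The 2 pairs within a genotype were neighbours in that order whose libraries overlapped.

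The balance between the paralogs was not the same in every group. Ly6c1 made up 21.1% of the summed Ly6a and Ly6c1 counts in Ptpn2-null cells under IFNg (18.8% to 23.4%, exact binomial 95% interval, 1254 counts). It made up 14.7% in Ptpn2-null cells under IFNbIFNg (13.9% to 15.5%) and 11.2% in control cells (8.15% to 14.98%). Under IFNgTNFa it made up 16.2% in Ptpn2-null cells (15.4% to 17.1%) and 13.1% in control cells (10.2% to 16.6%). By library, the share was 19.9% to 21.9% in Ptpn2-null cells under IFNg, above each library of the other 4 groups, whose highest was 16.9%. The intervals cover counting error only, and reads that match both genes can move the share.

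**Figure D4:**
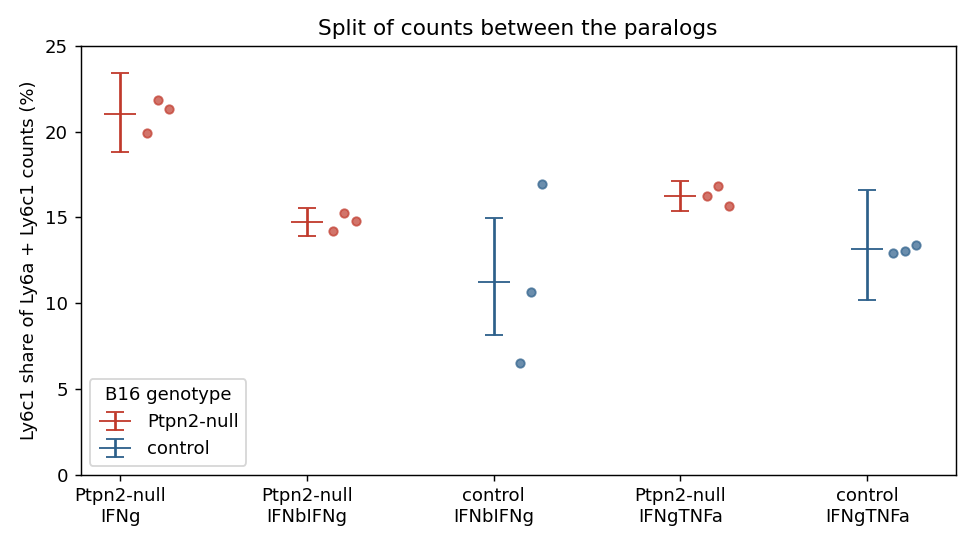
Share of Ly6c1 in the summed counts of Ly6a and Ly6c1 (y axis, percent) in the 5 groups with more than 100 such counts. Bars give the group value with its exact binomial 95% interval, and the points beside each give its 3 libraries. Ptpn2-null cells under IFNg stand at 21.1%, above the other groups.

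The genes whose levels ran most like those of Ly6a were sought over the 14 group means of log2(CPM + 1), among 10801 genes that reached 5 CPM in at least 1 group. They were Ifi205 (Pearson r = 0.986), a PYHIN family gene named for its induction by interferon, C130026I21Rik (0.984), Ly6c1 (0.983), Nog (0.979), which encodes the BMP antagonist noggin, and Gm7609 (0.978). For Ly6c1 they were Ly6a (0.983), the kinase gene Stk38l (0.975), Nog (0.974), the membrane scaffold gene Mpp1 (0.971) and Ifi205 (0.964). Ly6c1 had no count in 8 of the 14 groups, so its r leans on the few groups where it was high. By rank (Spearman) the values with Ly6c1 were 0.896 for Ly6a, 0.837 for Stk38l, 0.907 for Nog, 0.745 for Mpp1 and 0.940 for Ifi205. Reads that match both Ly6a and Ly6c1 may add to the likeness of that pair, which was not tested. Ifi205 averaged 40.6 CPM in Ptpn2-null and 0.641 CPM in control cells under IFNg, and 174.3 CPM in Ptpn2-null and 24.8 CPM in control cells under IFNgTNFa. Stk38l, by contrast, was present in vehicle, at 22.4 CPM in Ptpn2-null and 23.4 CPM in control cells, and reached 39.2 CPM in Ptpn2-null and 28.9 CPM in control cells under IFNgTNFa. The 14 points share their libraries across genes, so these correlations are descriptions.

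The annotation places 46 other genes in the cluster from Psca to Gpihbp1, both included, of which 16 had a row and 14 of those had no count in B16. The exceptions were Ly6i, the neighbour between Ly6e and Ly6a, with 11 reads in Ptpn2-null and 2 in control libraries, and Cyp11b1, a gene of adrenal steroid synthesis, with 9 reads in Ptpn2-null and 1 in control libraries. Ly6i shares 70 of its 37-base words with Ly6a, and its reads lay mostly in Ptpn2-null cells under IFNbIFNg (7) and IFNgTNFa (4), where Ly6a was highest. The 9 Ptpn2-null reads of Cyp11b1 lay in the same groups, under IFNbIFNg (6) and IFNgTNFa (3). The source of the reads of either gene was not tested.

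Few relatives of the 4 genes had enough counts to be tested. Of 42 other genes of the Ly6 and urokinase receptor family, 30 had a row and 4 passed the filter, namely Plaur, Cd59a, Ly6g5b and Ly6g5c. Plaur, the urokinase receptor, rose in Ptpn2-null cells under IFNg, at 33.2 ± 1.61 CPM in Ptpn2-null and 16.8 ± 3.58 CPM in control cells (log2 fold change 0.97 ± 0.13, adjusted p = 1.0e-08, edgeR quasi-likelihood test with Benjamini-Hochberg adjustment over all genes). It was the only 1 of the 4 called between genotypes under IFNg (34.9% of all genes tested), under IFNbIFNg (38.4%) and under IFNgTNFa (41.0%), and none was called in vehicle (3.07%) or under IFNb (0.554%), by edgeR or DESeq2, with 0 of 4 at an unadjusted p under 0.05 in either. Its log2 fold change was 0.41 ± 0.11 under IFNbIFNg (adjusted p = 0.0040) and 0.57 ± 0.10 under IFNgTNFa (adjusted p = 1.3e-05, edgeR). Without the 5 libraries far from their group means, the IFNbIFNg difference was 0.26, with a lone control IFNbIFNg library left. Without Ptpn2-null IFNgTNFa replicate 3 a second of the 4 genes was called under IFNgTNFa.

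In control cells, TNFa was the stimulus under which all 4 of these relatives rose (47.7% of all genes tested were called). Plaur stood at 19.8 ± 2.78 CPM with TNFa and 11.3 ± 3.07 CPM with vehicle (log2 fold change 0.81 ± 0.15, adjusted p = 2.3e-05, edgeR). Cd59a, an inhibitor of the complement membrane attack complex, rose by 0.54 ± 0.17 on the log2 scale (adjusted p = 0.0076, edgeR). Ly6g5c rose by 0.72 ± 0.26 (adjusted p = 0.022), and Ly6g5b, a low gene named after its values were seen, by 1.21 ± 0.46 (adjusted p = 0.026, edgeR). The count was 2 of 4 without control TNFa replicate 3 or control vehicle replicate 1, and Ly6g5c was not called without control TNFa replicate 2 or 3 or control vehicle replicate 1 or 2 (adjusted p = 0.068 to 0.14, edgeR). Under IFNb and under IFNg, 1 of 4 was called, Plaur, by 0.53 ± 0.15 (adjusted p = 0.0067; 30.5% of all genes) and 0.56 ± 0.15 (adjusted p = 0.0025; 37.9% of all genes, edgeR). Neither call remained without control vehicle replicate 2 (adjusted p = 0.12 for IFNb and 0.061 for IFNg), and the IFNg call was also lost without control IFNg replicate 1 (adjusted p = 0.088, edgeR).

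Of 16 genes of JAK-STAT signalling and the interferon receptors, all were tested. Under IFNg, 10 rose and 3 fell in Ptpn2-null against control cells (median log2 fold change 0.27, against -0.0032 over all genes, of which 34.9% were called). The feedback inhibitors Socs3 and Socs1 stood at 160.8 ± 5.36 and 113.7 ± 6.96 CPM in Ptpn2-null cells, against 64.2 ± 3.87 and 56.9 ± 5.27 CPM in control cells. Their log2 fold changes were 1.33 ± 0.08 for Socs3 and 0.9951 ± 0.0935 for Socs1 (adjusted p = 3.7e-19 and 5.9e-13, edgeR). Usp18, which restrains the type I interferon receptor, rose by 1.47 ± 0.06 (adjusted p = 2.3e-26), and the kinase gene Jak1 by 0.75 ± 0.06 (adjusted p = 1.4e-15, edgeR). Among those that fell was the receptor gene Ifngr2, by 0.54 ± 0.07 (adjusted p = 2.8e-09, edgeR), named after its values were seen.

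Between genotypes, 9 of the 16 rose and 3 fell under IFNbIFNg (38.4% of all genes called), and 9 rose and 2 fell under IFNgTNFa (41.0%). Socs3 stood at 227.7 ± 21.8 CPM in Ptpn2-null and 59.01 ± 2.53 CPM in control cells under IFNgTNFa (log2 fold change 1.95 ± 0.08, adjusted p = 3.2e-26, edgeR). Jak2 rose by 0.63 ± 0.09 under IFNbIFNg (adjusted p = 4.5e-07) and by 0.99 ± 0.09 under IFNgTNFa (adjusted p = 1.8e-13, edgeR). In vehicle (3.07% of all genes called) none of the 16 was called by edgeR or DESeq2, with 4 at an unadjusted p under 0.05 in edgeR. When the fit held no other group, 2 were called there, both lower, with more of all genes called as well. In the fit of all groups, 1 was called there without control vehicle replicate 3 or without the 5 libraries far from their group means. Under IFNb (0.554% of all genes called) 2 rose, Irf1 by 0.37 ± 0.08 (adjusted p = 0.010) and Stat2 by 0.36 ± 0.07 (adjusted p = 0.0024, edgeR). That count dropped to 0 when the first control IFNb library was left out, and to 1 when the first or the third Ptpn2-null IFNb library was.

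The same 16 genes were also compared between cytokine and vehicle in control cells. Under IFNb, 8 rose and 3 fell (30.5% of all genes called), with the transcription factor gene Stat2 at 63.7 ± 6.66 CPM with IFNb and 9.24 ± 1.41 CPM with vehicle (log2 fold change 2.79 ± 0.10, adjusted p = 1.5e-29, edgeR). Usp18 rose by 8.18 ± 0.15 in the same comparison (adjusted p = 3.8e-43, edgeR). Ly6a and Ly6c1 had 0 counts in those control IFNb libraries. Under IFNg, 11 rose and 2 fell (37.9% of all genes called), with the interferon regulatory factor Irf1 at 929.0 ± 14.7 CPM with IFNg and 14.5 ± 1.80 CPM with vehicle. Under TNFa, 7 rose and 1 fell, 8 of 16 where 47.7% of all genes were called, and the log2 fold change of Irf1 was 0.95 ± 0.09 (adjusted p = 7.6e-12, edgeR).

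Of 29 genes that build the GPI anchor or attach it, 28 were tested. Between genotypes, 4 rose and 2 fell under IFNg (34.9% of all genes called), 4 rose and 2 fell under IFNbIFNg (38.4%), and 5 rose and 2 fell under IFNgTNFa (41.0%). None was called in vehicle (3.07% of all genes called) or under IFNb (0.554%) by edgeR or DESeq2, with 4 and 2 at an unadjusted p under 0.05 in edgeR. At such shares, 0 of 28 says little about these genes. When the fit held no other group, 2 were called in vehicle, both higher, with more of all genes called as well. Pigl, whose enzyme acts at the second step of anchor synthesis, stood at 56.6 ± 1.90 CPM in Ptpn2-null and 43.9 ± 2.26 CPM in control cells under IFNg (log2 fold change 0.36 ± 0.09, adjusted p = 0.0015, edgeR). Pgap2, which acts on the finished anchor's lipid, rose by 0.47 ± 0.07 (adjusted p = 6.7e-07), and Pigx, a subunit of the first mannosyltransferase, fell by 0.37 ± 0.11 (adjusted p = 0.0062, edgeR). Pigv, the second mannosyltransferase, rose by 0.86 ± 0.14 under IFNgTNFa (adjusted p = 8.3e-07), and Pign, which adds ethanolamine phosphate, by 0.40 ± 0.08 (adjusted p = 5.3e-05, edgeR). The count under IFNbIFNg was 2 when the fit held no other group, and 3 without Ptpn2-null IFNbIFNg replicate 2, control IFNbIFNg replicate 1 or control IFNbIFNg replicate 3. The call of Pigx under IFNg was lost without control IFNg replicate 3 (adjusted p = 0.071, edgeR).

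Against vehicle in control cells, 2 of the 28 rose and 7 fell under IFNb (30.5% of all genes called), 3 rose and 6 fell under IFNg (37.9%), and 6 rose and 5 fell under TNFa (47.7%). Dpm3, a subunit of the synthase that supplies mannose, fell by 0.72 ± 0.15 under IFNb and by 0.70 ± 0.14 under IFNg on the log2 scale (adjusted p = 1.2e-04 and 8.2e-05, edgeR). Pigl rose by 0.80 ± 0.10 under IFNg (adjusted p = 8.8e-09) and Pigg, which modifies the second mannose, fell by 1.144 ± 0.154 under TNFa (adjusted p = 3.5e-08, edgeR). The medians over the 28 lay between -0.089 and 0.074 in all 8 comparisons.

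LY6E, the human counterpart of Ly6e, was measured in samples that did not enter the choice of the genes. Cells of the lung line A549, the colon line HT29 and the melanoma lines MelJuSo and A375 carried a PTPN2 guide or the non-targeting guide Bro4, and were given IFNg (100 ng/mL) or vehicle for 48 h. Unlike Ly6e in B16, LY6E was counted in every one of the 39 libraries, from 726 to 14356 reads. Its levels ran from 107.2 CPM in A375 to 2070 CPM in HT29. The A375 vehicle libraries labelled PTPN2-null held 24.1 to 25.1 CPM of PTPN2 and those labelled control 11.9 and 12.1 CPM, which goes against the labels, so directions that use them are those of the labels.

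LY6E rose with IFNg in both genotypes of HT29, where it stood at 1667 and 2070 CPM with IFNg against 413.9 and 386.4 CPM with vehicle in PTPN2-null cells. In HT29 control cells it stood at 1558 and 1589 CPM with IFNg, against 270.3 and 271.3 CPM with vehicle. The log2 fold changes of IFNg against vehicle were 2.22 ± 0.12 in PTPN2-null and 2.54 ± 0.12 in control cells (adjusted p = 3.8e-05 and 3.4e-05, edgeR), in comparisons that called 67.8% and 59.4% of all genes. The first control IFNg library of HT29 carries a lung cell type beside its HT29 line label. In the other lines, the log2 fold change in PTPN2-null cells was 0.62 ± 0.04 in A375, 0.62 ± 0.05 in A549 and 0.60 ± 0.04 in MelJuSo (adjusted p = 2.8e-32, 4.8e-35 and 6.7e-28, edgeR), where 64.8%, 53.5% and 54.6% of all genes were called. In control cells LY6E rose by 0.21 ± 0.05 in A549 and 0.22 ± 0.04 in MelJuSo (adjusted p = 1.9e-04 and 8.5e-06; 47.6% and 11.5% of all genes called), and in libraries labelled control of A375 it fell by 0.28 ± 0.05 (adjusted p = 4.7e-07, edgeR; 66.0% called). The A549 call was lost without control vehicle replicate 1 (0.13 ± 0.06, adjusted p = 0.093, edgeR), which leaves a lone library there.

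Under IFNg, LY6E was higher in PTPN2-null than in control cells of 3 lines. In A375 it stood at 194.3, 194.8 and 204.6 CPM in PTPN2-null libraries, against 116.3, 107.2 and 122.3 CPM in control libraries (log2 fold change 0.79 ± 0.04, adjusted p = 6.2e-43, edgeR; 50.8% of A375 genes were called). In A549 it stood at 204.1 and 200.4 CPM in PTPN2-null libraries, against 153.3 and 156.1 CPM in control libraries (0.39 ± 0.05, adjusted p = 1.6e-14, edgeR; 24.3% called). In MelJuSo it stood at 336.5, 334.6 and 332.6 CPM in PTPN2-null libraries, against 249.0, 246.6 and 239.5 CPM in control libraries (0.45 ± 0.04, adjusted p = 2.2e-20, edgeR; 51.2% called). The groups did not overlap in any of these lines, nor in HT29 (1667 and 2070 CPM in PTPN2-null, 1558 and 1589 CPM in control libraries). The share of all genes without overlap was not computed for the human lines, so nothing is read from this.

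In HT29 the difference between genotypes under IFNg was 0.25 ± 0.11 and was not called (adjusted p = 0.15, edgeR; 41.9% of genes called), and it was 0.39 without PTPN2-null IFNg replicate 1 and 0.092 without replicate 2. Each of these leaves 1 PTPN2-null IFNg library, which is assumed to vary like the other groups, so the calls that edgeR then makes do not test the difference between the 2 libraries. In vehicle, LY6E was higher in PTPN2-null than in control cells of HT29 by 0.56 ± 0.13 (adjusted p = 0.043, edgeR; 21.1% called), and that call was lost when any 1 of the 4 vehicle libraries was left out (adjusted p up to 0.19), where the lone library is likewise assumed to vary like the other groups. It was not called in vehicle in A375 (-0.11 ± 0.05, adjusted p = 0.11; 21.1% called), A549 (-0.02 ± 0.05, adjusted p = 0.93; 2.95% called) or MelJuSo (0.07 ± 0.04, adjusted p = 0.51, edgeR; 1.64% called). The test of whether the difference between genotypes changed with IFNg called LY6E in A375 (47.1% of genes called), A549 (11.3%) and MelJuSo (35.5%), and not in HT29 (19.1%).

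**Figure D5:**
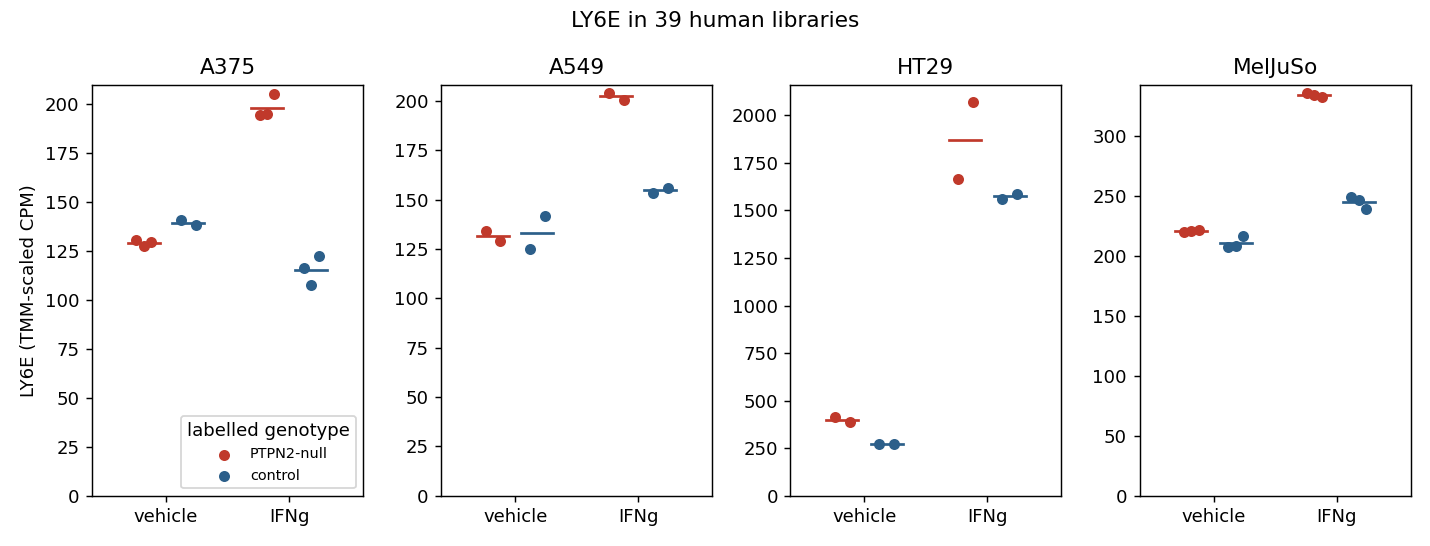
LY6E as TMM-scaled CPM (y axis, starting at 0 with its own range in each panel) in 4 human lines under vehicle and IFNg, with 1 point per library and a line at the mean, PTPN2-null in red and control in blue as labelled. Under IFNg the PTPN2-null libraries lie above the control libraries in all 4 lines, though the difference was not called in HT29. HT29 has the highest levels, up to 2070 CPM.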

How the data were processed

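Per the submitters' processing notes, the authors' files hold raw counts of reads for each gene. Those notes list Bowtie2 2.2.4 and HTSeq 0.6.1p1, Trimmomatic 0.33 for trimming and bcl2fastq 2.17.1.14, with builds mm10 and hg19. The sources used here name no annotation, strand setting or handling of reads with several matches. Per the labels' protocols, libraries were directional and read in pairs of 37 bases.

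Each line was fitted by itself in edgeR 4.0.16 (R 4.3.3), with genes kept by filterByExpr, TMM factors, robust dispersions and a mean for each group. Contrasts were tested by quasi-likelihood F tests, with p-values adjusted after Benjamini-Hochberg over every gene of the line (threshold 0.05). Tested were 11726 genes in B16, 12271 in MelJuSo (library totals of 4191317 to 9216731 counts), 12555 in HT29 (6848609 to 9605776), 13172 in A549 (6096437 to 8253298) and 13410 in A375 (5323668 to 7951961). The procedure was tested on simulated data. CPM used TMM library sizes, and CPM per kb the exon length of coding transcripts. Where a group was at 0, folds are lower bounds computed with 3 counts for that group's total. The 4 genes, the gene lists and the contrasts were chosen with earlier results of these data known. Genes open to be named were, per list and comparison, up to 4 called genes with the largest change whose mean log2 CPM reached 1, along with the 5 genes most like Ly6a or Ly6c1. Alternatives were RLE size factors, no filter, DESeq2 1.42.0, only the compared groups in the fit, a replicate block and leaving out each library, with the fit without 5 libraries added after seeing the data. Results for 1 gene of the JAK-STAT list and 1 promoter motif are not reported here.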

Additional observations from a re-analysis of the deposited data

Results flagged for a closer look

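In 3 human lines the difference between genotypes in LY6E was tested for a change with IFNg, as the difference between PTPN2-null and control cells under IFNg minus that under vehicle. It was 0.90 ± 0.07 on the log2 scale in A375 (adjusted p = 2.6e-28, edgeR), 0.41 ± 0.07 in A549 (adjusted p = 8.8e-07) and 0.38 ± 0.05 in MelJuSo (adjusted p = 3.3e-09). In each of these lines the difference between genotypes was larger with IFNg than with vehicle. The A375 value uses vehicle libraries whose PTPN2 levels go against their labels. In HT29 the same difference was -0.32 ± 0.17 and was not called (adjusted p = 0.31, edgeR), and it was -0.17 without PTPN2-null IFNg replicate 1 and -0.45 without replicate 2, each with a lone library in that arm that is assumed to vary like the other groups. All of these tests were added after the data were seen.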

How the results depend on the processing

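The fitted Ly6a and Ly6c1 differences between genotypes and between cytokine pairs and IFNg kept their sign under every alternative, between 3.82 and 4.25 for Ly6a under IFNbIFNg and IFNgTNFa. Ratios of a few reads did not. With single libraries left out, the Ly6a ratio of Ptpn2-null to control under IFNbTNFa was -0.48 to 1.41 (log2; negative without control replicate 1), and the Ly6a bound of IFNbTNFa against vehicle in Ptpn2-null cells was -0.13 to 1.10 (-0.13 without vehicle replicate 1 and -0.081 without replicate 3). Bounds also fell by construction where a library at 0 was left out. Without the 5 libraries far from their group means, the bound of Ly6c1 with IFNbIFNg in control cells was 3.28 against vehicle and 3.35 against IFNg. The Ly6e ratio between genotypes under IFNbIFNg was then 2.03 (log2). These values rest on the lone control IFNbIFNg library left, replicate 1, with 9 reads of Ly6c1 and 2 of Ly6e. Of the 5 genes most like Ly6c1, 3 remained with a pseudocount of 0.25 CPM or over 42 libraries. With only the compared groups in the fit, 2 JAK-STAT genes (both lower) and 2 GPI genes (both higher) were called between genotypes in vehicle, and 2 GPI genes under IFNbIFNg. All genes called between genotypes then numbered 1357 in vehicle and 2164 under IFNbIFNg, against 360 and 4504 in the fit of all groups. Without the 5 libraries, 1 JAK-STAT gene was called in vehicle. In HT29, the LY6E difference in vehicle was 0.56 and not called with RLE factors, and that under IFNg was 0.24 and called with no filter. The cause was not tested.

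With single libraries left out (in arms of 2, the lone library is assumed to vary like the other groups), the counts called between genotypes were 3 to 8 GPI genes under IFNbIFNg, 0 to 2 JAK-STAT genes under IFNb, 0 to 1 JAK-STAT genes in vehicle and 1 to 2 relatives under IFNgTNFa. The same fits called 3292 to 5110 of all genes under IFNbIFNg, 35 to 51 under IFNb, 129 to 267 in vehicle and 4228 to 4475 under IFNgTNFa. Relatives called against vehicle in control cells were 0 to 1 under IFNb, 0 to 1 under IFNg and 2 to 4 under TNFa. All genes called there numbered 2718 to 3221 under IFNb, 3792 to 3996 under IFNg and 4495 to 5127 under TNFa. LY6E in A549 was 0.13 to 0.31 for IFNg in control cells and -0.11 to 0.078 between genotypes in vehicle, with 0.078 without control replicate 2 and 0.0057 without PTPN2-null replicate 2. In HT29 it was 0.51 to 0.61 between genotypes in vehicle, 0.092 to 0.39 under IFNg and -0.45 to -0.17 for the difference of the 2.

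Pairing by replicate number was looked for in departures from group means, correlated over genes between same-numbered Ptpn2-null and control libraries. These correlations ran from -0.56 to 0.65 in B16 and were over 0.1 in 3 of 21 pairs. The highest, 0.59 and 0.65, were those of IFNbIFNg replicates 2 and 3. In HT29, with 2 libraries per group, both pairs of a treatment give the same value by construction. It was 0.118 under IFNg and 0.0589 under vehicle. A pairing of some libraries is not excluded by these values. With a replicate block, the Ly6a difference under IFNg was 6.91, and 4090 genes were called between genotypes under IFNg, against 4093 without it.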
